A study of Arabidopsis thaliana with 2 samples.

Results

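The pericentromere of chromosome 4 of Arabidopsis (Arabidopsis thaliana) was taken as all listed bins of chromosome 4 that start from 2.5 Mb up to 6.3 Mb, a window that holds the centromere and leaves out the heterochromatic knob at 1.5 to 2.5 Mb of the short arm. The window held 3342 of the 56731 bins listed by the authors, of which 56184 are nuclear. A bin is a stretch of 99 bases in a grid of 100 bases, for which the table gives how many cytosine calls were methylated and how many were not. The window was chosen by position alone. Whole-genome bisulfite sequencing, in which unmethylated cytosines are read as T and methylated ones as C, was performed on genomic DNA of 12-d-old seedlings, with 1 library of miP1a-OX and 1 library of Col-0. The miP1a-OX plants carry a transgene in which the 35S promoter, active in nearly all tissues, drives FLAG-miP1a, a tagged microProtein that delays flowering, and Col-0 is the wild type without it. Growth was on MS plates by the methods and on soil by the sample records, under long days in both. Each genotype has 1 library, so that every difference below compares these 2 libraries and not the genotypes, and differences between regions could not be tested. Brackets give 95% Clopper-Pearson intervals, which account for counting error alone and treat each call, or each bin for shares of bins, as independent. Calls of 1 read are not independent, so intervals on calls are too narrow even for that error. Chloroplast DNA, which is taken to be unmethylated, had a level of 0.177% in miP1a-OX and 0.290% in Col-0 over 70 listed bins. The gene of miP1a had 716 calls in miP1a-OX and 1035 in Col-0 in 2 listed bins, which does not check the labels.

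Pericentromeres flank the centromere, are rich in transposable elements, their remnants and tandem repeats, and hold few expressed genes. In Arabidopsis they carry most of the DNA methylation of the genome. Methylation in the CG context is copied by MET1 at replication, CHG methylation is kept by CMT3 together with histone H3 lysine methylation, and CHH methylation is laid down again after each replication by CMT2 and by the RNA-directed pathway (H is A, C or T). The deposited level pools the 3 contexts on both strands. As a mean over the listed bins of the window, 11.8% of the cytosines of a bin were in the CG context, 11.8% in CHG and 76.4% in CHH.

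Sequences of the window carried the extremes of its data, and 8 bins are shown, all from the plus strand of TAIR10.1, 5′ to 3′. The first 4 belong to a block of degenerate 7-base repeats that held most of the bins with the largest differences. Capitals mark CCCTAAA, which in tandem makes up the C-rich strand of Arabidopsis telomeres.
chr4:3236801-3236899: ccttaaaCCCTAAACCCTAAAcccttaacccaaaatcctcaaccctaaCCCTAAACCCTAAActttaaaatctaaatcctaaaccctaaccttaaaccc
chr4:3239701-3239799: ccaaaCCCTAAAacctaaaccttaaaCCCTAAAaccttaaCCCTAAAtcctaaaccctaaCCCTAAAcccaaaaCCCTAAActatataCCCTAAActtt
chr4:3225601-3225699: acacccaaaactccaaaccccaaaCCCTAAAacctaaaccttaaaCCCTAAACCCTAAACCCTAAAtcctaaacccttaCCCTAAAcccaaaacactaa
chr4:3239601-3239699: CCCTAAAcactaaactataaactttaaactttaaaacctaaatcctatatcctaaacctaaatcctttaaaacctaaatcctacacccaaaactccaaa
The next is 1 of the deepest bins, from a tandem repeat of 178 bases, the length of the centromere satellite of Arabidopsis. Capitals mark bases identical to the base 178 positions further on.
chr4:3952501-3952599: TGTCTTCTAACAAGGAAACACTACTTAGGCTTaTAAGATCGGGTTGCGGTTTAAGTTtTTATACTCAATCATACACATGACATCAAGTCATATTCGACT
The sixth comes from a tandem repeat of 498 bases, with capitals for bases identical to the base 498 positions further on.
chr4:3055201-3055299: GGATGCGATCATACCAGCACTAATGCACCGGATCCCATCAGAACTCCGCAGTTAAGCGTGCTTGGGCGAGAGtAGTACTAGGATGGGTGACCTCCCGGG
The last 2 are outside tandem repeats, with CG sites in capitals: a bin in the pseudogene AT4G08050 and a bin upstream of the homeobox gene KNAT1.
chr4:4897801-4897899: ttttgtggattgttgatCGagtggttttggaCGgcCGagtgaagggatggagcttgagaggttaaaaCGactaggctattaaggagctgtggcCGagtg
chr4:5151501-5151599: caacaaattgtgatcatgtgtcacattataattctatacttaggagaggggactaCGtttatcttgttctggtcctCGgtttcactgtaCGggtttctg

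The level, methylated calls over all calls, was higher in miP1a-OX over most of the window. Pooled over the 3338 bins in which both libraries reached 10 calls, it was 21.9% in miP1a-OX (21.8 to 22.0) and 18.1% in Col-0 (18.0 to 18.2), a difference of 3.80 percentage points. The median bin had a level of 22.1% in miP1a-OX (quartiles 12.8 and 32.4) and 16.4% in Col-0 (quartiles 7.96 and 27.2). The differences of single bins had a mean of 4.37 points, quartiles of -5.63 and 11.04 points and a median of 7.95 points, which is read with the empty middle described below in view. Outside the tandem repeats described below the pooled difference was 4.09 points. Of the 3338 bins, 2351 were higher and 987 lower in miP1a-OX, so that 70.4% were higher (68.8 to 72.0). The same share over all listed nuclear bins was 64%.

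Depth in the window was close to that of the nuclear bins as a whole. The median bin had 345 calls in miP1a-OX and 349 in Col-0, against 363 and 361 calls over all nuclear bins. With 2 strands, the calls per covered cytosine correspond to a median depth of 20.1-fold in miP1a-OX and 21.2-fold in Col-0. Because a bin is listed only where Fisher's exact test gave p of at most 0.01, shallow bins appear in the window only with large differences and the gap around equal levels is empty. The plot of both levels bin by bin shows that gap.

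**Figure D1:**
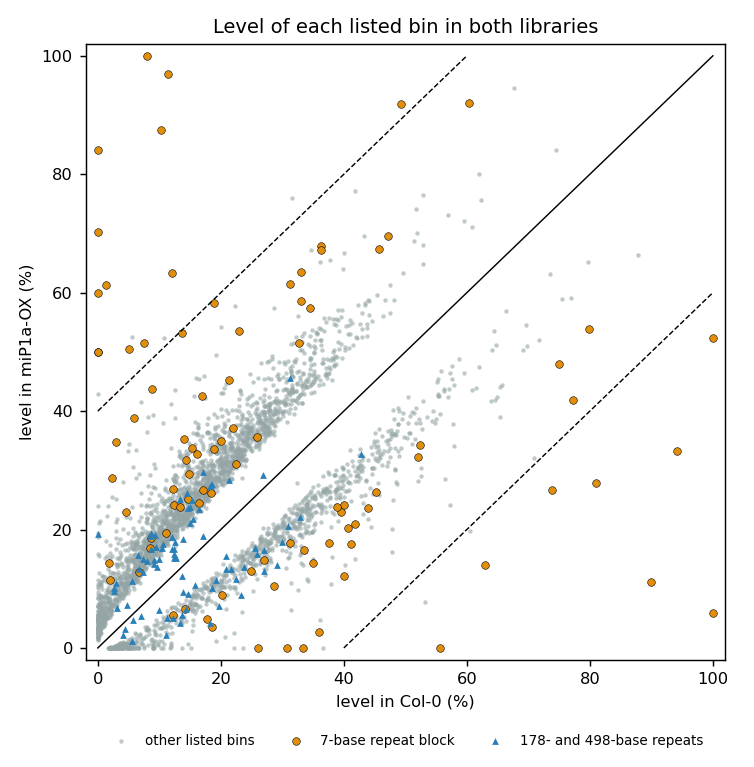
Level in miP1a-OX (vertical axis, percent) and in Col-0 (horizontal axis, percent) of each listed bin for which both libraries reached 10 calls. The solid line marks equal levels and the dashed lines a difference of 40 points. 27 bins lie on or beyond the dashed lines, and 21 of them are in the 7-base repeat block (orange).

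Listed bins were denser in the window than over the genome. It listed 8.79% of its 38000 reference bins, against 4.72% of the reference bins of chromosomes 1 to 5 and 3.62% of those of the rest of chromosome 4 outside the window and the knob. The share of the knob was 7.87%, and windows around the centromeres of chromosomes 1 (13 to 17 Mb), 3 (12 to 16 Mb) and 5 (10 to 14 Mb) listed 8.71%, 8.95% and 8.56%. The share of bins higher in miP1a-OX was 70.4% in the window and 58.4% on the rest of chromosome 4 (57.0 to 59.8), where the median bin had a level of 5.61% in miP1a-OX and 4.75% in Col-0. It was 69.6% in the knob, 71.7% in the window of chromosome 1, 67.9% in that of chromosome 3 and 68.0% in that of chromosome 5. These shares are set side by side and were not tested against each other. The pooled difference was 3.80 points in the window, 3.74 in the knob, 4.62 in the window of chromosome 1, 0.730 in that of chromosome 3, 3.32 in that of chromosome 5 and 1.65 points on the rest of chromosome 4. Pooling weighs bins by their calls. As a mean over bins the difference was 4.37 points in the window, 4.11 in the knob and 2.68 on the rest of chromosome 4. That mean was 4.82 points in the window of chromosome 1, 3.66 in that of chromosome 3 and 3.69 in that of chromosome 5.

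**Figure D2:**
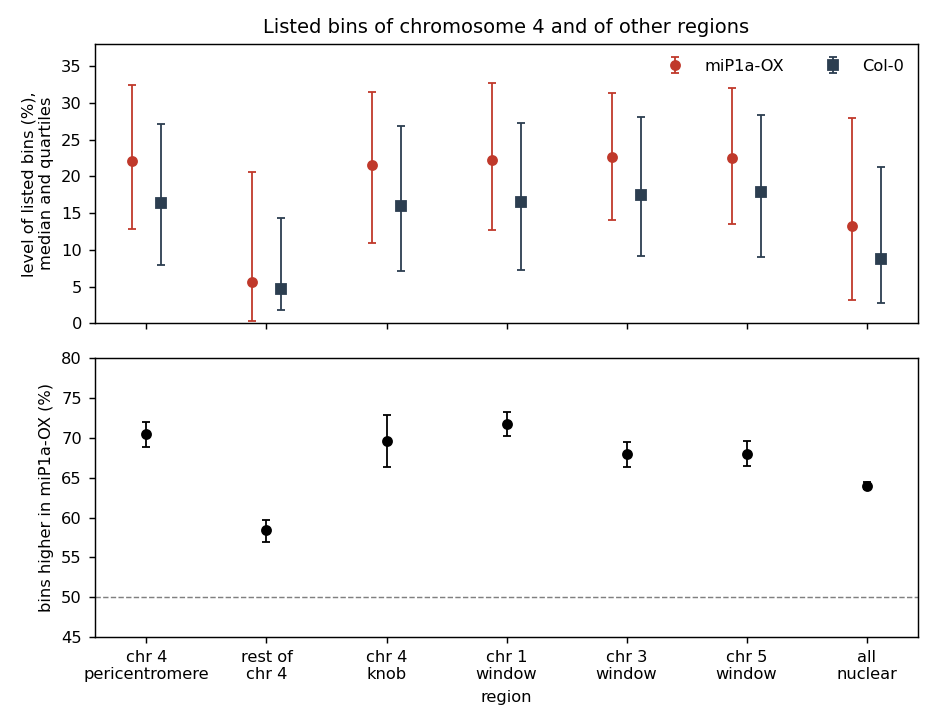
Upper panel, level of the listed bins (median, with bars from the lower to the upper quartile) in miP1a-OX (red circles) and Col-0 (dark blue squares). Lower panel, percent of listed bins higher in miP1a-OX with 95% Clopper-Pearson intervals. The share is 70.4% in the pericentromere of chromosome 4, 58.4% on the rest of the chromosome and 64% over all nuclear bins.

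Levels differed with what the annotation places in a bin. Pseudogenes, among which this annotation places genes of transposable elements, held 968 of the bins and the highest levels, 26.5% in miP1a-OX and 23.8% in Col-0. The 344 bins of protein-coding genes were the lowest, with 11.4% in miP1a-OX and 10% in Col-0, a difference of 1.42 points. The 2001 intergenic bins had 21.7% in miP1a-OX and 17% in Col-0, and here 75.7% of the bins were higher in miP1a-OX. That share was 63.1% in pseudogenes and 60.2% in protein-coding genes. All 3 shares are to be read against the 64% of all listed nuclear bins.

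Bins rich in CG sites had higher levels in both libraries, and the pooled difference was close to that of CG-poor bins. Where under 10% of the cytosines were in the CG context, the pooled level was 17.2% in miP1a-OX and 13.3% in Col-0 over 1633 bins. Where at least 30% were, it was 37.5% in miP1a-OX and 33.7% in Col-0 over 207 bins. The pooled difference was 3.90 points in the CG-poorest bins and 3.85 points in the CG-richest ones, and 71.8% and 66.7% of the bins were higher in miP1a-OX. By the mean of both levels, the share higher in miP1a-OX was 60.3% in the 378 bins from 0 to 5%, 76.3% in the 350 bins from 5 to 10%, 78.4% in the 939 bins from 10 to 20% and 59.4% in the 276 bins of at least 40%. The share was highest in bins of 5 to 20%.

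Along the window, all 38 intervals of 100 kb had a higher pooled level in miP1a-OX, by 0.521 to 8.86 points with a median of 4.04 points, and in all 38 over 50% of the bins were higher. The plot of levels along the window shows how these differences were spread. From 2.5 to 4.0 Mb, the side of the short arm, the pooled level was 21.5% in miP1a-OX and 18.9% in Col-0, and 64.7% of 1220 bins were higher in miP1a-OX. From 4.0 to 6.3 Mb it was 22.2% in miP1a-OX and 17.6% in Col-0, and 73.7% of 2118 bins were higher. Outside the tandem repeats these shares were 65.6% (62.7 to 68.5) and 73.8% (71.9 to 75.7). In intervals of 500 kb, the pooled difference was 2.67 points from 2.5 Mb, 3.24 from 3.0 Mb, 2.01 from 3.5 Mb, 3.41 from 4.0 Mb, 4.62 from 4.5 Mb, 4.66 from 5.0 Mb, 5.0 from 5.5 Mb and 5.54 points in the last 300 kb from 6.0 Mb.

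The change in makeup along the window ran beside this. Pseudogenes made up 36.5% of the bins from 2.5 to 4.0 Mb and 24.7% of those from 4.0 to 6.3 Mb, and their part in the result was not tested beyond the values by class. Within pseudogenes 59.8% of the bins were higher in miP1a-OX on the side of the short arm and 66.0% on the other side. Within intergenic bins these shares were 69.7% and 78.8%, and within protein-coding genes 51.6% and 63.3%. The shares were higher from 4.0 Mb on in each of the 3 classes. In protein-coding genes on the side of the short arm the pooled level was 8.29% in miP1a-OX and 8.71% in Col-0, a difference of -0.42 points.

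3 of the 100-kb intervals were named by rule. The interval from 4.0 to 4.1 Mb had the most listed bins, 131, with 20.9% in miP1a-OX and 17.6% in Col-0, and it holds 2 protein-coding genes and 16 pseudogenes. The interval from 5.8 to 5.9 Mb had the fewest, 57, and also the largest difference, with 24.4% in miP1a-OX and 15.5% in Col-0 and 89.1% of its bins higher in miP1a-OX. The smallest difference was from 3.9 to 4.0 Mb, which holds satellite beside the gap in the assembly, with 14.6% in miP1a-OX and 14.1% in Col-0. Median depth by interval ran from 11.1-fold to 27.0-fold in miP1a-OX and from 11.9-fold to 27.6-fold in Col-0, and was lowest in both libraries from 3.2 to 3.3 Mb.

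**Figure D3:**
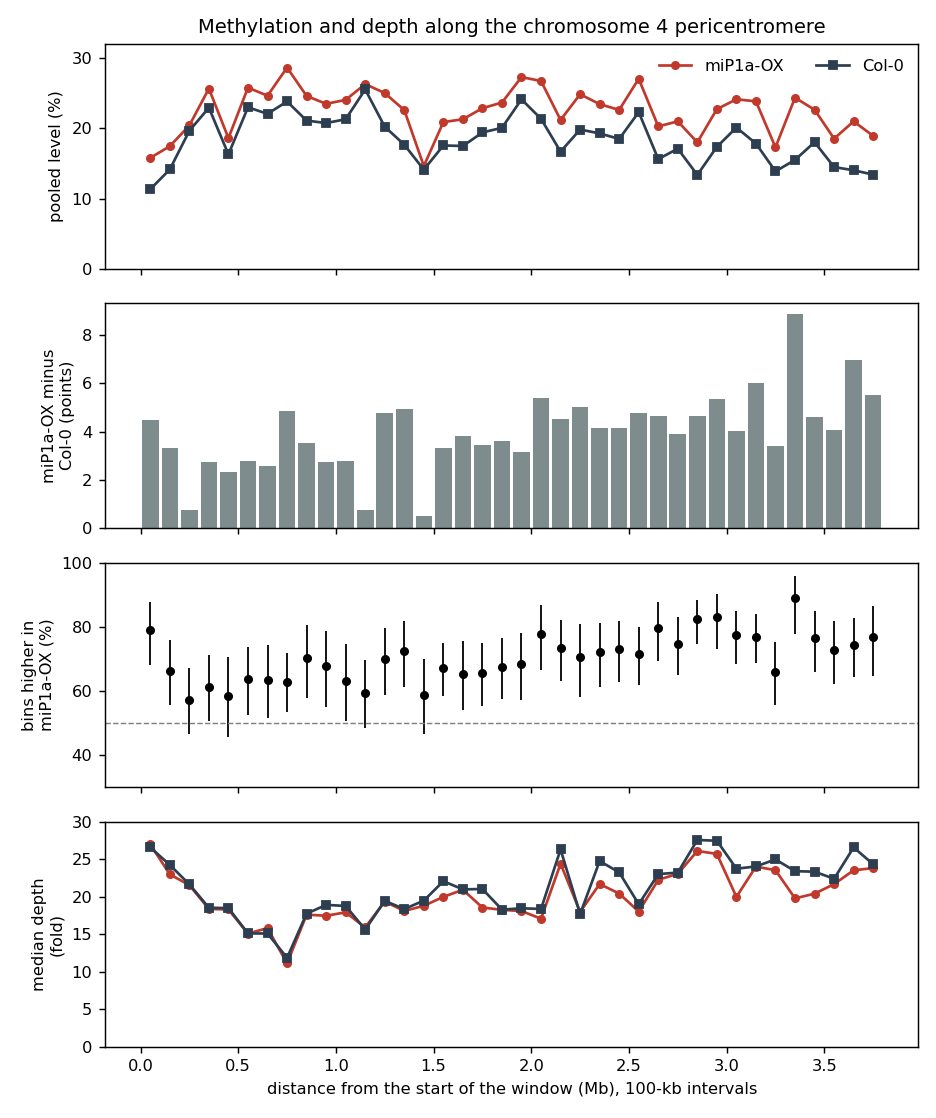
Values in 38 intervals of 100 kb against the distance from the start of the window (Mb). From top to bottom: pooled level in miP1a-OX (red) and Col-0 (dark blue), their difference in percentage points, percent of bins higher in miP1a-OX with 95% Clopper-Pearson intervals, and median depth. The difference is above 0 in every interval and is 8.86 points at its highest, 3.3 Mb from the start.

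The largest differences of single bins were concentrated in 1 repeat block. By the rule of the study with a coverage minimum (p of at most 0.01, a difference of at least 40 points and at least 10 calls in each library), 27 bins differed, 17 higher and 10 lower in miP1a-OX, or 0.809% of the bins. Over all listed nuclear bins 0.401% passed this rule, 0.274% higher and 0.126% lower in miP1a-OX, and on the rest of chromosome 4 it was 0.140%. The share was 2.42% in the window of chromosome 1, with 84 bins, 0.527% in that of chromosome 5, 0.224% in that of chromosome 3 and 0.254% in the knob, so the window of chromosome 4 was not the highest. Of the 27 bins, 21 lay in the block of 7-base repeats at chr4:3194401-3263500, which holds 2.84% of the listed bins of the window. Outside it 6 bins passed, or 0.185%. The block was delimited after the values had been seen, so these counts are a description.

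The block is 69.1 kb long and lies downstream of the pseudogene AT4G06510, reaching the first bases of the pseudogene AT4G06511. Bases 7 positions apart were identical at 48.1% of its positions, against a median of 27.8% in the window. CCCTAAA occurs 858 times on its plus strand and TTTAGGG, its reverse complement, never does. At least 1 copy of either was present in 46.6% of its bins of 99 bases, in 2.24% of all such bins of the window and in 1.37% of those of chromosomes 1 to 5. Of its 95 listed bins, 75.8% held 1 or more, against 1.39% of the listed bins elsewhere in the window. In the window of chromosome 1, where 1.25% of the reference bins hold 3 or more copies (0.337% here), 34 of 104 listed bins with 3 or more copies differed by the rule, beside 10 of 41 such bins here. In the windows of chromosomes 3 and 5, 0 of 7 and 0 of 1 such bins did, and over all nuclear bins 45 of 169. Such bins were shallower. Their median calls were 148 in miP1a-OX and 171 in Col-0 here, and 109.5 and 134 in the window of chromosome 1. Listed bins of the chromosome 4 window without a copy had 349 in miP1a-OX and 352 in Col-0.

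In the block the level was 31.5% in miP1a-OX (30.8 to 32.3) and 26.4% in Col-0 (25.7 to 27.1). The median absolute difference of a bin was 22.0 points, beside 9.75 points in the whole window. Both directions were present, with 56 bins higher and 38 lower in miP1a-OX, and 13 and 8 of them past the rule. Depth moved with the block: its median bin had 134 calls in miP1a-OX and 146 in Col-0, or 8.96-fold and 9.67-fold. Of its 94 bins with at least 10 calls, 25.5% had under 50 calls in a library, against 0.771% in the rest of the window. As a mean over its 94 bins, CHH sites made up 90.7% of the cytosines of a bin.

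The printed bins give its extremes. At chr4:3236801-3236899 all 33 of 33 calls were methylated in miP1a-OX, against 4 of 50 in Col-0, or 100% (89.4 to 100) and 8.00% (2.22 to 19.2). The opposite stood at chr4:3239701-3239799, with 1 of 17 calls in miP1a-OX and 35 of 35 in Col-0. The 33 calls fell on 33 cytosines, and the 17 and 35 calls on 17 and 35 cytosines. These levels thus rest on 1 call per cytosine, about 1 read, and the interval of 89.4 to 100 counts calls and not reads. The bin next to it on the left, chr4:3239601-3239699, had 49 of 184 calls in miP1a-OX and 150 of 203 in Col-0, a difference of -47.26 points and the largest decrease among bins with at least 50 calls. At chr4:3225601-3225699 49 of 97 calls were methylated in miP1a-OX and 4 of 78 in Col-0, a difference of 45.4 points. All 4 bins lack G on the plus strand, so that every cytosine is on the same strand and none is in a CG site. The exact sequence of chr4:3239701-3239799 occurs 5 times on chromosome 4, and those of the other bins 4 times each. Reads of such copies can be assigned to the wrong place, so these values are uncertain.

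2 further increases were named by rule. The largest among bins with at least 50 calls was at chr4:3263101-3263199, 87 bases upstream of AT4G06511 and at the edge of the block, with 38 of 60 calls in miP1a-OX and 28 of 233 in Col-0. The third, at chr4:3260301-3260399, had 72 of 140 calls in miP1a-OX and 11 of 147 in Col-0. In the first, the 38 methylated calls in miP1a-OX are fewer than its 39 cytosines on 1 strand, the number that a single read can give. In both bins calls share reads, so they are not independent.

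**Figure D4:**
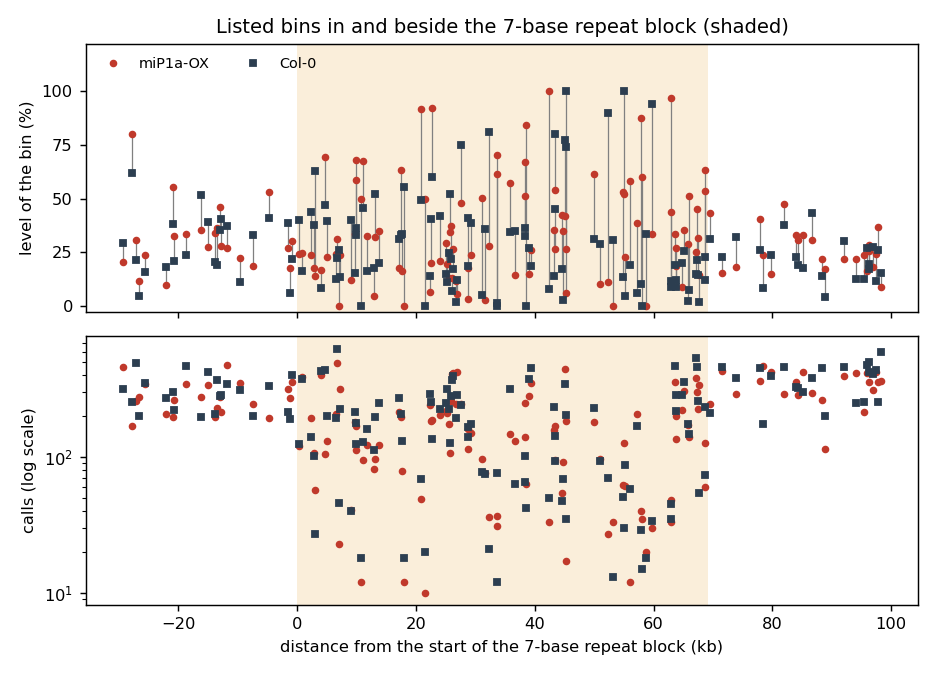
Listed bins in which both libraries reached 10 calls, in and beside the 7-base repeat block (shaded, 69.1 kb) against the distance from its start (kb). Upper panel, level of each bin in miP1a-OX (red circles) and Col-0 (dark blue squares), joined by a line. Lower panel, calls of the same bins on a log scale. Long lines of both directions lie inside the block, and calls reach down to 10 there, with a median of 134 in miP1a-OX and 146 in Col-0.

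Few reads stood behind most of the differing bins. The median differing bin had 37 calls in miP1a-OX and 34 in Col-0, and 5 of the 27 had at least 50 calls in each library. In 18 of the 27 the library with the higher level had no more methylated calls than the bin has cytosines on 1 strand, the number that a single read can give. Of the listed bins with under 50 calls in a library 22 of 53 differed, and of those with 50 to 100 calls 3 of 78. With 100 to 200 calls 2 of 439 did, with 200 to 400 calls 0 of 2106 and with more 0 of 666. Outside the block 5 of 28 bins with under 50 calls and 1 of 62 with 50 to 100 calls differed. Calls were also scaled to 2 times the calls per covered cytosine, which on average counts each read about 1 time where both strands hold cytosines. In bins with cytosines on 1 strand only, as in 10 of the 21 differing bins of the block, it counts each read about 2 times. On this scale 0 bins passed the rule, and 2 did with an unadjusted p under 0.05 by Fisher's exact test. On that scale 3 of the 3338 bins had p of at most 0.01 and 20 had p under 0.05 by Fisher's exact test.

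**Figure D5:**
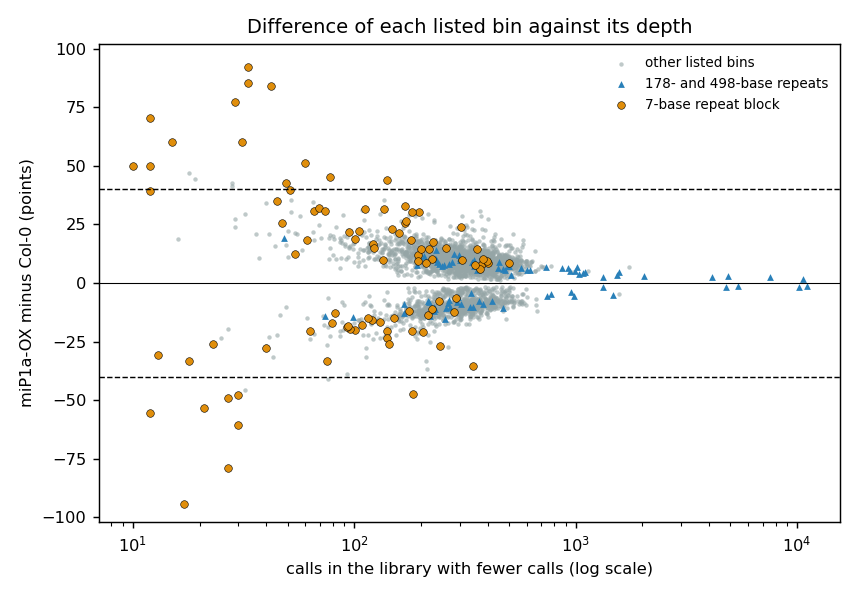
Difference of each listed bin (miP1a-OX minus Col-0, percentage points) against the calls in the library with fewer calls, on a log scale. Dashed lines mark 40 points. Bins beyond them have at most 184 calls, and 0 of the 2106 bins with 200 to 400 calls and 0 of the 666 with more lie there.

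The 6 differing bins outside the block were all in or beside pseudogenes except 1. AT4G06626 holds 2 increases, with 19 of 25 calls in miP1a-OX and 6 of 19 in Col-0 at chr4:3743701-3743799, and 21 of 40 in miP1a-OX and 1 of 18 in Col-0 at chr4:3745901-3745999. AT4G08405 holds 1 increase, with 23 of 44 calls in miP1a-OX and 3 of 28 in Col-0. The decrease in AT4G08880, the second largest among bins with at least 50 calls, had 16 of 81 calls in miP1a-OX and 46 of 76 in Col-0, and its 99 bases occur 10 times in the genome. A further decrease lay 37 bases upstream of AT4G06738, with 3 of 39 calls in miP1a-OX and 17 of 32 in Col-0. The exception was an increase 1993 bases upstream of the protein-coding gene AT4G09260, with 12 of 28 calls in miP1a-OX and 0 of 58 in Col-0.

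The third largest decrease among bins with at least 50 calls did not reach 40 points. It lay in AT4G08050, in the printed bin chr4:4897801-4897899, with 77 of 240 calls in miP1a-OX (32.1%, 26.2 to 38.4) and 66 of 93 in Col-0 (71.0%, 60.6 to 79.9), a difference of -38.88 points. In Col-0 these calls covered 11 of its 49 cytosines and in miP1a-OX all 49, and 11 is the number of C on the plus strand. The levels of this bin therefore rest on different cytosines in the 2 libraries.

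Satellite repeats held the deepest bins printed here. Stretches with a 178-base period were found at 6 places, 119.3 kb in all, 3 of them at chr4:2919001-3047800 and 3 around the gap of 1000 bases at chr4:3956022-3957021. Their 82 listed bins had a pooled level of 12.7% in miP1a-OX (12.5 to 12.9) and 12.1% in Col-0 (11.9 to 12.3), with 47 bins higher and 35 lower in miP1a-OX and none reached a difference of 40 points. The pooled difference, 0.589 points, weighs bins by their calls, while the median absolute difference of a satellite bin was 7.5 points, beside 9.75 points in the window. The median satellite bin had 417.5 calls in miP1a-OX and 426 in Col-0. Unlisted bins are not used here, so the repeats as a whole were not compared. Very deep bins let small differences pass: the printed bin chr4:3952501-3952599 had 2005 of 10603 calls in miP1a-OX (18.9%, 18.2 to 19.7) and 1840 of 10708 in Col-0 (17.2%, 16.5 to 17.9). Its neighbour chr4:3952601-3952699 had 536 of 11523 calls in miP1a-OX and 631 of 11065 in Col-0, or 4.65% and 5.70%. Adjoining bins of 1 repeat thus differed by far more from each other than either did between the libraries.

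The 498-base repeats at chr4:3054001-3061000 had 1 listed bin, the printed chr4:3055201-3055299. It had 2209 of 7555 calls in miP1a-OX (29.2%, 28.2 to 30.3) and 2031 of 7573 in Col-0 (26.8%, 25.8 to 27.8), at a depth near 270-fold in both libraries. Its 99 bases occur 9 times on chromosome 4 and 2 times on chromosome 5. Tandem arrays of 5S rRNA genes are known from the pericentromeres of Arabidopsis, and the annotation used here names no rRNA gene at this place.

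Neighbouring bins moved together. Of 639 pairs of adjoining listed bins in the window, 92.2% had the same direction, beside 92.2% of 10743 pairs over all nuclear bins. The reads of the study are longer than a bin, so adjoining bins share reads and their directions are not independent. Runs of at least 3 adjoining bins in 1 direction numbered 103, 82 higher and 21 lower in miP1a-OX, and held 10.6% of the bins. Runs outside the window are not counted here, so these numbers describe the window alone. The longest, of 10 bins, was chr4:5322801-5323799, which reaches into the 3′ end of AT4G08400, a gene annotated as coding for a proline-rich extensin-like protein of the cell wall. Its pooled level was 9.81% in miP1a-OX (8.88 to 10.8) and 0.911% in Col-0 (0.639 to 1.26), and all its bins were higher in miP1a-OX by 4.83 to 16.7 points.

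The next runs were shorter and at higher levels. A run of 8 bins at chr4:5036801-5037599, 2000 bases downstream of the pseudogene AT4G08108, had 22.7% in miP1a-OX and 10.9% in Col-0. A run of 7 bins at chr4:2583801-2584499, 755 bases upstream of the noncoding RNA gene AT4G05025, had 15.9% in miP1a-OX and 6.74% in Col-0. Among the decreases, the run with most bins, 5, lay in the pseudogene AT4G05595 and had 5.33% in miP1a-OX and 13.2% in Col-0. Runs of 4 bins had 33.5% in miP1a-OX and 47.8% in Col-0 in the pseudogene AT4G06603, and 32.6% in miP1a-OX and 46.5% in Col-0 in the pseudogene AT4G07504. These were the runs with the largest pooled differences of 5 decreasing runs of 4 bins. The other runs of 4 bins had 27.4% in miP1a-OX and 37.9% in Col-0 in the pseudogene AT4G05280, 0.290% in miP1a-OX and 6.64% in Col-0 at 384 bases upstream of the protein-coding gene FBS3, and 10.5% in miP1a-OX and 20.2% in Col-0 in a coding exon of AT4G09012.

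Bins without any methylated call numbered 82 in miP1a-OX and 79 in Col-0, and those with the most calls were in or beside genes. In miP1a-OX, 0 of 679 calls were methylated in a coding exon of AT4G10060, annotated as a beta-glucosidase family gene, which allows a level of up to 0.442%, against 8 of 464 in Col-0. In AGD13, of the ARF GAP family of vesicle traffic, 0 of 600 calls were methylated in miP1a-OX (up to 0.50%) and 20 of 419 in Col-0. An intergenic bin 1402 bases downstream of the noncoding RNA gene AT4G05700 had 0 of 666 calls in miP1a-OX (up to 0.450%) and 8 of 355 in Col-0. The reverse was found 346 bases upstream of AT4G08550, with 8 of 416 calls in miP1a-OX and 0 of 662 in Col-0 (up to 0.453%). A bin 852 bases upstream of AT4G09560 had 6 of 456 calls in miP1a-OX and 0 of 570 in Col-0 (up to 0.526%). The third, 1281 bases upstream of the defensin-like gene AT4G08875, had 8 of 441 calls in miP1a-OX and 0 of 483 in Col-0 (up to 0.621%). The upper limits count each call as independent, which calls of 1 read are not. In each of these bins the methylated calls of the other library are no more than the cytosines on 1 strand, the number that a single read can give.

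Genes of the window mostly had a listed bin. Of 319 protein-coding genes with both ends inside it, 257 had 1 or more in the gene or the 1000 bases upstream, and of 537 pseudogenes 466 did. Most of the bins of a gene were higher in miP1a-OX for 165 protein-coding genes and lower for 60, and 32 were even. Among pseudogenes 282 were mostly higher, 112 mostly lower and 72 even. The 64% of all listed nuclear bins that were higher in miP1a-OX counts bins and not genes, so it is an unlike measure. The same counts over genes outside the window were not computed, so no trait of the window is read from them.

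A list of 30 characterised genes was followed in more detail, of which 29 lie inside the window and SFR6 crosses its edge. Of these 29, 20 had a listed bin and 9 had none. The 88 bins of the list had a median difference of 5.93 points, beside 7.95 points in the window and 5.26 points over all listed nuclear bins, with 64 higher and 24 lower in miP1a-OX. In 0 of them did the difference reach 40 points by Fisher's exact test at p of at most 0.01. An adjusted p of at most 0.01 was reached by 37 of the 88, beside 25.8% of the listed bins of the window and 32.3% of all listed nuclear bins.

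KNAT1, a homeobox gene of the shoot meristem, had 2 bins upstream. The printed one, 342 bases upstream, had 159 of 524 calls in miP1a-OX (30.3%, 26.4 to 34.5). In Col-0 it had 52 of 561 (9.27%, 7.0 to 12.0), a difference of 21.1 points. These calls fell on 40 cytosines in each library, so that calls share reads and are not independent. STK, a MADS-box gene of ovule identity, had 3 bins, all higher in miP1a-OX, of which the 2 adjoining ones in an intron had levels of 32.7% and 36.1% in miP1a-OX against 22.8% and 16.0% in Col-0. CRY1, the blue-light receptor cryptochrome 1, had 4 bins in its coding exons, with 3 higher in miP1a-OX by 4.93 to 11.02 points and 1 lower, with a difference of -8.20 points. TT8, a bHLH regulator of flavonoid synthesis, had 1 intron bin with 19.5% in miP1a-OX and 8.37% in Col-0. DDB1A, an adaptor of ubiquitin ligases, had 1 bin with 4.87% in miP1a-OX and 13.5% in Col-0.

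SAPX, the stromal ascorbate peroxidase, had 11 bins, 10 of them higher in miP1a-OX. All 6 bins in its upstream stretch were higher in miP1a-OX, the highest with 47.2% in miP1a-OX and 31.2% in Col-0, and the largest difference of the list, 29.6 points, lay at its 3′ end. ISA3, an isoamylase that debranches starch, went the other way upstream: its 5 bins there were all lower in miP1a-OX, with differences of -15.28 to -6.69 points, and the 4 farthest from it form the run in AT4G09012, while its 3 exon bins were higher by 2.65 to 7.59 points. IBR1, an enzyme that acts on the auxin precursor indole-3-butyric acid, had 6 bins upstream. 4 adjoining ones were higher in miP1a-OX by 14.9 to 18.9 points, and the nearest listed bins on either side of them were lower, with differences of -19.73 and -8.02 points. The arginase genes ARGAH1 and ARGAH2 had 4 and 2 upstream bins, all higher in miP1a-OX by 6.52 to 15.8 points, and 1 coding bin in each was lower, with differences of -2.29 and -3.43 points. SULTR1;1, a sulfate transporter, had 8 bins, 7 of them higher in miP1a-OX. CINV2, a cytosolic invertase, had 4 bins, all higher in miP1a-OX by 3.55 to 10.5 points. The other genes of the list with a listed bin, apart from UBQ10 below, are given by count only. Bins higher in miP1a-OX were 2 of 4 in MAPKKK9, 2 of 2 in MEKK3, 1 of 1 in GRF1 and 2 of 4 in ATK5. They were 3 of 4 in FUR1, 2 of 2 in MYB6 and 1 of 3 in FBW2.

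UBQ10, a polyubiquitin gene, had 7 bins in its coding exon in which 5 were higher and 2 lower in miP1a-OX. In the 5 higher ones 0 calls were methylated in Col-0, and in miP1a-OX the levels were 3.55% to 10.2%. In the 2 lower ones the levels were 0.667% and 0.339% in miP1a-OX and 14.6% and 9.09% in Col-0. The coding sequence consists of near-identical ubiquitin units that other polyubiquitin genes share, so reads can be assigned to the wrong unit and these values are uncertain.

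At each edge of the window the bins just inside and just outside had the same direction. The first bin inside had 20 of 301 calls in miP1a-OX and 2 of 304 in Col-0, and the last bin before it 55 of 455 in miP1a-OX and 16 of 431 in Col-0, both in SFR6. The last bin inside had 0 of 201 calls in miP1a-OX and 14 of 252 in Col-0, and the first bin after it 0 of 478 in miP1a-OX and 36 of 272 in Col-0.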

How the data were processed

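Genomic DNA of 1 miP1a-OX and 1 Col-0 library was compared, both described by the labels. The authors mapped the reads with BS-Seeker2 (version 2.1.0, per the labels) and Bowtie2 to TAIR9, used Methpipe for levels and bedtools for bins of 100 bases, and deposited raw counts of calls, methylated and unmethylated, for each bin. The deposited table holds bins with Fisher's exact p of at most 0.01 only. Other bins are not used here. The table and the merged list hold 12 further per-library columns, which were left out, as were the authors' p-values and their merged list of differing bins with its annotation, which hold the authors' own findings.

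The members and lists were chosen with earlier results of these data known. Levels were computed from the counts, over bins in which both libraries reached 10 calls. Fisher's exact test (two-sided, scipy 1.17.1, python 3.11.15) was run on the counts of each listed bin. It was tested on simulated data with independent calls, which leaves out that calls share reads. Adjusted p-values used the Benjamini-Hochberg method with 1196690 reference bins as the number of tests. The number of C plus G matched TAIR10.1 in 100% of the listed nuclear bins, so the annotation and sequences come from that RefSeq assembly. Repeat blocks are stretches of at least 5000 bases in which windows of 500 bases matched themselves 7 bases on at 40% or more of positions, or 178 or 498 bases on at 60% or more. The long periods were the lags of 100 to 600 bases with most windows matching at 90% or more. They were found after the values had been seen.

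Named bins were the 3 increases and 3 decreases largest among bins with at least 50 calls and 5 covered cytosines, those with most calls at a level of 0, the 3 runs with most bins in each direction, the 100-kb intervals with most and fewest bins and the highest and lowest difference, and the genes of the list of 30. The other bins of the 7-base block, the satellite, the 498-base repeat and the differing bins outside the block were chosen after their values were seen. Where no call was methylated, 3 calls over all calls served as the upper limit. Depth is 2 times the calls per covered cytosine. Reads counted about 1 time means the same scale, on which reads of bins with cytosines on 1 strand only count about 2 times. Calls of 1 read are not independent molecules, so intervals on calls are narrower than the counting error of reads. The median bin had 345 calls but about 20.1 reads in miP1a-OX. No interval covers differences between plants.
Alternatives changed the coverage minimum, the threshold on the difference or on p, the depth by thinning, the summary over bins, centring, the length of runs and the stretch upstream of a gene. The number of transgenic lines and of seedlings in a library is not given in the sources used here.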

Additional observations from a re-analysis of the deposited data

How the results depend on the processing

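No paired analysis was possible because only 1 library of each genotype was analysed, which also leaves no replicate to take out. The pooled difference of 3.80 points was 6.56 points over bins with a Benjamini-Hochberg adjusted p of at most 0.01, 4.15 with the deeper library thinned, 4.37 as the mean and 7.95 as the median over bins, 4.18 with reads counted about 1 time, and 4.09 outside the tandem repeats, a setting picked once the data had been seen. The share of bins higher in miP1a-OX, 70.4%, was 77.3% with the adjusted p and 64.2% when differences were centred on the nuclear median of 5.26 points. Centring makes the nuclear share an even split, so the 64.2% is not to be read beside the uncentred 64% of all nuclear bins. Under that centring 48.0% of the differing bins were higher in miP1a-OX, in place of 63.0%. The 27 differing bins became 5 with at least 50 calls, 56 at a difference of 0.3, 15 at 0.5, 0 with reads counted about 1 time and 6 outside the 7-base block, also picked once the data had been seen. The 103 runs became 9 at 5 bins in a row and 156 with 1 unlisted bin allowed. The cause of these changes was not tested, beyond the fewer or more bins that each setting admits. All 8 intervals of 500 kb were higher in miP1a-OX with a coverage minimum of 50 calls and as means over bins. Depth limits the 7-base block most, with a median of 134 calls in miP1a-OX and 146 in Col-0.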
